A study of Drosophila melanogaster with 4 samples.

Results

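Uextra is the part of the dm3 fly assembly that strings together small, low-quality scaffolds with no assigned place on a chromosome. The accessible regions analysed here are the rows of 2 deposited ATAC-seq peak lists whose sequence name is Uextra. There were 992 of 5145 peaks in the longer list, called list L, and 1312 of 4027 in the shorter list, called list S. These are 19.3% (95% interval 18.2 to 20.4) and 32.6% (31.1 to 34.1) of the lists. They covered 324 kb and 386 kb, or 15.7% and 22.8% of the bases in peaks. Both numbers are those of the lists as deposited, since no peak was filtered out here.

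The study profiled S2 cells, a cultured Drosophila melanogaster line of embryonic origin, in 4 libraries. Of these, 2 were controls with LacZ as the treatment, a bacterial gene that flies lack, and 2 were libraries with knockdown of H1. Every library's label names both peak lists, so neither list can be given to the control or the H1-depleted cells, and whether a difference between the lists is one between conditions is unknown. No peak carries a value per library, so there are no replicates. All intervals are exact binomial, order-statistic or odds-ratio intervals at 95% that take each peak as an independent count, and they hold counting error alone.

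In ATAC-seq the transposase Tn5 cuts DNA where nucleosomes and other proteins leave it open, and peaks mark stretches with many cuts. Histone H1 binds the nucleosome and the linker DNA beside it, compacts chromatin, and in flies takes part in heterochromatin structure and the silencing of transposable elements. Unplaced fly scaffolds are rich in repeats of this kind, where a short read can match several places. How reads with several matches were handled was not stated in the labels, and its part in any value below was not tested.

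Uextra peaks had about the width of other peaks in list L and were shorter in list S, with summits near the middle. The median width was 256 bp (242 to 271) in list L and 216 bp (206 to 226) in list S, where all peaks had medians of 261 bp (256 to 268) and 265 bp (258 to 271). On U, the other unplaced sequence, the medians were 283 bp (259 to 313) and 290 bp (264 to 339), and on the major arms 260 bp (253 to 268) and 285 bp (274 to 294). The lower and upper quartiles of the widths were 155 and 465 bp in list L, and 156 and 382 bp in list S. The narrowest peaks were 60 bp (15652888 to 15652947, list L) and 57 bp (28878509 to 28878565, list S). The widest was 1 region in both lists. Its list L borders were 205946 and 208034 (2089 bp), and its list S borders 205923 and 208071 (2149 bp). The summit, the base of highest significance, lay at a median of 0.487 of the width from the start in list L (0.473 to 0.506) and 0.493 in list S (0.482 to 0.505). The middle 90% of summits fell between 0.187 and 0.810 of the width in list L, and between 0.196 and 0.803 in list S.

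Very wide peaks were scarce on Uextra. Only 10 of 992 list L peaks (1.01%, 0.484 to 1.85) were wider than 1000 bp, where the share of all list L peaks was 5.54%. In list S the number was 11 of 1312 (0.838%, 0.419 to 1.50), beside 6.08% of all peaks. On U the shares were 8.40% and 8.20%, and on the heterochromatic (Het) scaffolds 11.7% and 11.1%. The odds of such a width were 0.111 times those on U in list L (0.0516 to 0.239) and 0.0947 times in list S (0.0448 to 0.200). Both are crude, taken over all strengths at once. Within 10 equal parts of each list by strength, defined below, they were 0.0673 (0.0283 to 0.160) and 0.0671 (0.0287 to 0.157). Above 500 bp Uextra and U were closer in relative terms, with 21.2% of Uextra peaks and 24.4% of U peaks in list L, and 15.7% and 25% in list S. The Het shares were higher, at 30.4% in list L and 33.7% in list S, and those of the arms were 19.3% and 22.6%.

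Peak strength, the deposited area under the caller's significance curve, was ranked within each list. The median Uextra peak stood at percentile 57.1 of list L (52.8 to 60.8) and 53.1 of list S (50.4 to 56.3). By the summit −log10 p it stood at 60.7 (57.7 to 64.0) and 59.2 (56.3 to 61.4), and the summit −log10 q gave 60.7 and 59.2 again. Among Uextra peaks, the rank correlation of strength with −log10 p was 0.97 in both lists and with width 0.84 in list L and 0.79 in list S, as a description over peaks whose values come from the same curve. The strongest 10% of list L held 186 Uextra peaks, 18.8% of them, and the strongest 10% of list S held 177, or 13.5%. At the very top they were few, with 3 and 2 in the strongest 1%, or 0.302% and 0.152% of Uextra peaks, against 2.00% and 2.46% of U peaks.

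The deposited score equals 1000 times the strength per base, capped at 1000, to within rounding. It stood at its cap for 423 of 992 list L peaks on Uextra (42.6%, 39.5 to 45.8) and 533 of 1312 list S peaks (40.6%, 38.0 to 43.3). Over all peaks the share was 29.8% in list L and 27.3% in list S. Within 10 equal parts of each list by strength, the odds of a capped score on Uextra were 2.17 times those on U in list L (1.32 to 3.55) and 3.30 times in list S (2.00 to 5.43). Against the major arms they were 2.47 (1.89 to 3.22) and 7.11 times (5.36 to 9.44). The crude odds against U, over all strengths at once, were 1.21 (0.912 to 1.61) in list L and 1.23 (0.929 to 1.64) in list S, and both intervals include 1. At equal strength, a higher score per base means a narrower peak, so the odds within parts are no result apart from width.

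The same 5 regions were the strongest of Uextra in both lists, in a slightly different order. The first in list L ran from 597515 to 599032, with a −log10 p of 14.2 and rank 36 of the whole list, and was second in list S (597529 to 599030, 12.4). The first in list S ran from 719997 to 721336, with a −log10 p of 12.2 and rank 35, and was second in list L (719995 to 721336, 12.7). The region from 380381 to 382045 was ranked 3 in list L with a −log10 p of 11.8, and 4 in list S with 11.1. The region from 982815 to 984055 ranked 4 in list L with 13.9, and 3 in list S with 13.1. These 4 lay within the first Mb and were 1241 to 1665 bp wide in list L. The fifth in both lists lay further on, from 14082313 to 14083078 in list L, was only 766 bp wide and had a −log10 p of 16.3 there and 15.6 in list S.

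By summit significance the order was another one, and the 2 highest peaks of both lists lay near the end of Uextra. The peak from 28689362 to 28689595 in list L, 234 bp wide there, had a −log10 p of 29.9 in list L and 27.0 in list S. The peak from 28663881 to 28664198 in list L, 318 bp wide there, had 25.7 and 22.2. Both summits were at the same base in the 2 lists, at 28689496 and 28664053. These 2 peaks were picked after their values were seen.

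The width that peaks reached was smaller towards the end of Uextra in both lists, with steps up as well as down between bins. The widest peak per 1 Mb bin was 2089 bp in the first bin of list L and 1122 bp in the next. It was then 753 bp from 2 to 3 Mb, 958 bp from 4 to 5 Mb, 829 bp from 9 to 10 Mb, 766 bp from 14 to 15 Mb, 726 bp from 19 to 20 Mb, 629 bp from 24 to 25 Mb and 411 bp from 28 to 29 Mb. In list S the same bins gave 2149, 1122, 751, 946, 829, 759, 721, 623 and 445 bp. All 10 list L peaks and all 11 list S peaks wider than 1000 bp started before 2 Mb.

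Over the 29 bins with at least 5 peaks, the rank correlation of bin order with the widest peak was -0.94 in list L and -0.93 in list S. Without the first 2 bins it was -0.92 and -0.91 over 27 bins. Both lists place peaks on the same sequence, so the second value adds little to the first. The correlation on U was -0.02 and 0.01 over 10 bins, and on the 5 major arms it ran from -0.39 to 0.05 in list L and from -0.47 to 0.14 in list S. The widest peak of a Uextra bin was not always a lone one. From 14 to 15 Mb, 10 of the 39 list L peaks were within 10% of the widest, and from 13 to 14 Mb 6 of 49 were.

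**Figure D1:**
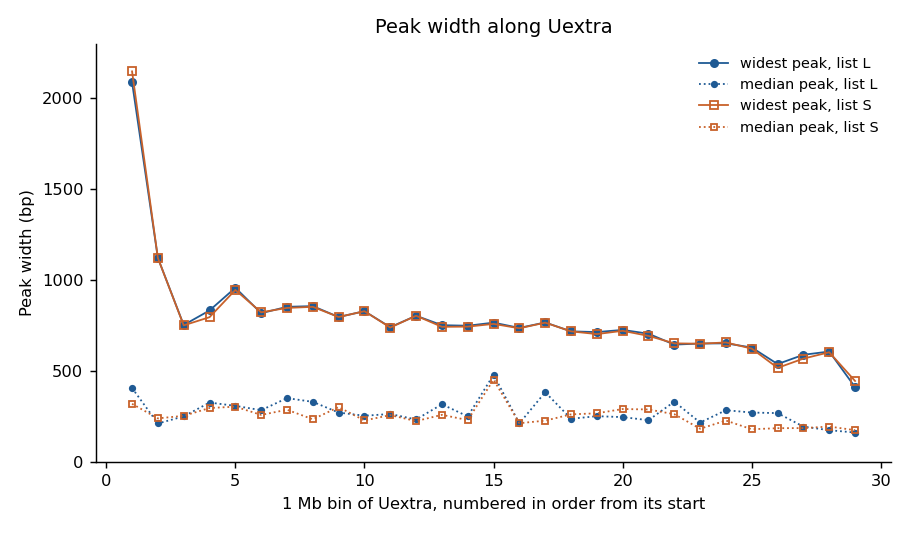
Peak width in bp (y axis) in successive 1 Mb bins of Uextra (x axis) for list L (filled circles) and list S (open squares), with the widest peak joined by solid lines and the median by dotted lines. The widest peak went from 2089 and 2149 bp in the first bin to 411 and 445 bp in the last, while the median stayed below it.

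The median width also differed between bins, while the strongest peak of each kept its rank. In bins of 2 Mb the median list L width was 283 bp at the start, 350 bp from 14 to 16 Mb, 181 bp from 26 to 28 Mb and 161 bp from 28 Mb on. The 90th percentile was 1032 bp at the start, 525 bp from 2 to 4 Mb, 785 bp from 6 to 8 Mb, 733 bp from 14 to 16 Mb and 320 bp at the end, so it did not fall steadily. The strongest peak of each 2 Mb bin stood between percentile 95.8 and 99.3 of list L throughout, and between 95.1 and 99.2 of list S. Over single peaks the rank correlation of position with width was only -0.14 in list L and -0.26 in list S, and with strength -0.07 and -0.11.

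Most list L peaks on Uextra had a counterpart in list S, whereas a larger share of the list S peaks lacked one in list L. Of the 992 list L peaks, 93 (9.38%, 7.63 to 11.4) overlapped no list S peak by 1 bp or more, and 33.1% of all list L peaks did so. Of the 1312 list S peaks, 411 (31.3%, 28.8 to 33.9) had no counterpart, beside 12.2% of all list S peaks. Both shares depend on the lengths of the lists: with list L cut to its 4027 strongest peaks they were 2.55% (1.59 to 3.87) and 38.6% (35.9 to 41.3). For list L at full length the share was close to that of U (9.60%, 6.25 to 13.9) and the Het scaffolds (10.7%, 6.94 to 15.7). Within parts of equal strength the odds ratio was 0.971 against U (0.554 to 1.70) and 0.897 against Het (0.489 to 1.65), and both intervals reach well to either side of 1. Against the major arms it was 0.0607 (0.0439 to 0.0839).

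In list S Uextra stood apart from U, the Het scaffolds and the major arms. The odds of lacking a counterpart there were 7.85 times those on U (4.46 to 13.8), 18.05 times those on Het (7.86 to 41.5) and 27.6 times those on the major arms (20.01 to 37.9), each within parts of equal strength. Without the stretch from 28 Mb on, described below, the ratios were 4.26 (2.40 to 7.55), 9.15 (3.98 to 21.02) and 14.4 (10.3 to 20.1). With a reciprocal overlap of 50% in place of 1 bp, the ratio to the arms was 3.53 (2.97 to 4.20) and that to U 3.93 (2.58 to 5.98).

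The unmatched peaks of the lists differed in where they stood by strength. In list L they were concentrated among the weakest. Of the Uextra peaks in the weakest of the 10 parts, 53.5% (42.4 to 64.3) were unmatched, followed by 34.3%, 13.4% and 9.57% in the next 3 parts and by at most 1.02% in each of the 6 strongest. The other classes showed this list L fall as well. In the weakest part 93.6% of arm peaks, 41.2% of U peaks and 52.6% of Het peaks were unmatched, and in the strongest part 0% of each. In list S the Uextra share went down slowly, from 53.7% (43.8 to 63.4) in the weakest part through 37.5% in part 5 to 28.6% (21.1 to 37.0) in part 8. It was 5.80% in part 9 and 0 of 177 in part 10, where a floor of 3 counts is 1.69% and the exact interval reaches 2.06%. The list S shares in the weakest part were 12.4% on the arms, 40% of 20 peaks on U and 22.7% of 22 on Het. In part 8 they were 0%, 3.70% and 0%, so the slow decline set Uextra apart from these classes. The median unmatched Uextra peak was at percentile 10.2 of list L (8.14 to 13.6) and 35.0 of list S (30.6 to 37.6), and was 116 bp and 167 bp wide.

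A pair of list L peaks went against this pattern. The peak from 11425844 to 11426204, 361 bp wide, had a −log10 p of 24.2. On Uextra in that list it was rank 3 by −log10 p and rank 32 by strength. The nearest list S peak was 9579 bp away. The peak from 24184786 to 24184972, 187 bp wide, had a −log10 p of 10.4 and stood at percentile 84.0, with the nearest list S peak 8888 bp away. The next in strength were at 28133078 to 28133320, 2678520 to 2678680 and 18026916 to 18027058, with a −log10 p of 6.44, 4.95 and 4.69.

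The strongest list S peaks without a counterpart were of closely similar rank, and 3 of the 5 lay beyond 28 Mb. They were at 7470314 to 7470630, 28073592 to 28073965, 23704203 to 23704682, 28658870 to 28659134 and 28720957 to 28721257. Their percentiles in list S ran from 82.2 to 84.0 and their −log10 p from 7.29 to 8.55. The nearest list L peaks were 4953, 16552, 50411, 4746 and 13612 bp away, so none of them was a near miss of the overlap rule. Over all unmatched Uextra peaks, 43 of 411 in list S and 21 of 93 in list L lay within 1 kb of a peak of the other list.

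The share of list S peaks without a counterpart was higher towards the end of Uextra, and list L showed no such order. In bins of 2 Mb it was 5.68% (1.87 to 12.8) in the first, 12.5% (5.88 to 22.4) from 8 to 10 Mb, 17.3% (9.78 to 27.3) from 16 to 18 Mb and 27.4% (16.9 to 40.2) from 22 to 24 Mb. It reached 44.3% (31.5 to 57.6) from 24 to 26 Mb, 39.0% (29.4 to 49.3) from 26 to 28 Mb and 79.9% (74.4 to 84.7) from 28 Mb on. In list L the bins ranged from 3.39% to 14.5%, with 6.74% (2.51 to 14.1) in the first and 12.3% (5.08 to 23.7) in the last.

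**Figure D2:**
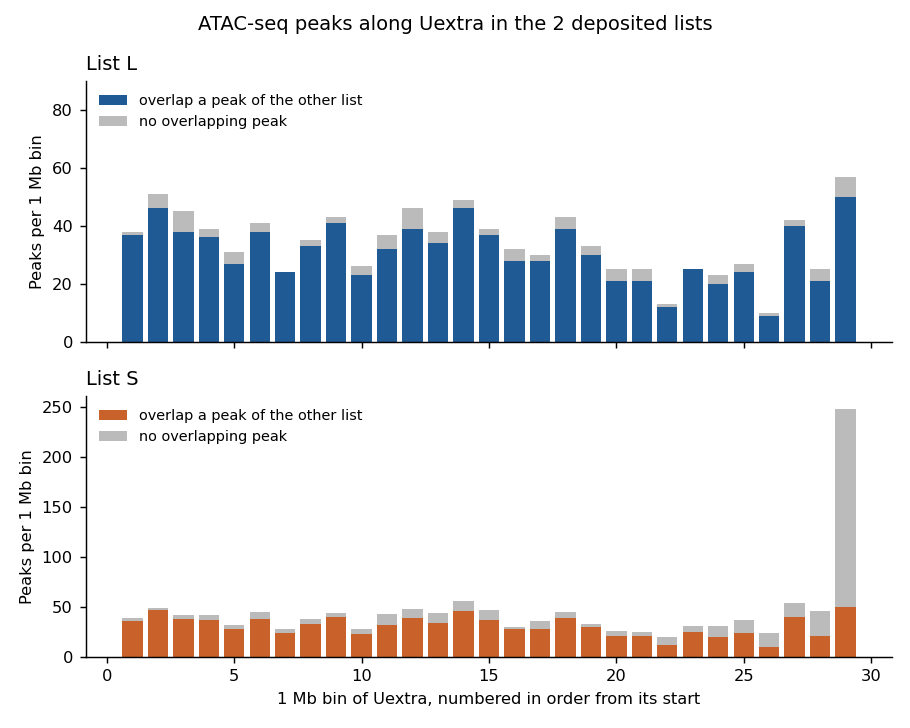
Number of peaks (y axis, with a longer scale for list S) per 1 Mb bin of Uextra (x axis), split into peaks that overlap a peak of the other list (colour) and peaks that do not (grey). The last bin of list S holds 248 peaks and that of list L 57, and the single list S peak beyond it is left out.

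The sequence beyond 28 Mb, whose last peak ended at 28982041 in list L and 29004148 in list S, held 57 and 249 peaks. That is 4.37 list S peaks for each list L peak (3.26 to 5.93), against 1.14 (1.04 to 1.24) before it. These intervals, and those of the ratios below, take the lists as separate counts and ignore the matching of peaks. Yet 50 of 57 list L peaks here and 849 of 935 before 28 Mb overlapped a list S peak. Unmatched peaks numbered 7 in list L and 199 in list S here, against 86 and 212 before 28 Mb. The excess was not even within the stretch. From 28 to 28.5 Mb there were 20 list L and 49 list S peaks, a ratio of 2.45 (1.43 to 4.35), and from 28.5 Mb on 37 and 200, a ratio of 5.41 (3.79 to 7.90). By 100 kb window, list S went from 7 peaks at 28.3 Mb to 16 at 28.4 Mb and 35 at 28.5 Mb, and then 31, 40, 46 and 47. List L had 3, 3, 8, 8, 5, 6 and 10 in the same windows. The last 3 of them were the fullest of list S, and outside this stretch the fullest windows of list L, at 2.3, 13.4 and 17.2 Mb, held 10 peaks each.

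The unmatched list S peaks of this stretch had a median strength below the middle of the list. The 199 peaks had a median percentile of 39.0 (35.1 to 44.8) and a median width of 164 bp. Their −log10 p ran from 3.64, the lowest of list S, to 8.55. The 212 unmatched list S peaks before it had a median percentile of 28.6 (24.9 to 35.0) and 173 bp. The 50 matched list S peaks of the stretch stood at percentile 79.8 (72.7 to 85.6), and 43 of them had a capped score. The widest peak of the stretch was 411 bp in list L and 445 bp in list S.

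Matched regions were compared over the 889 one-to-one pairs on Uextra. Their borders and summits were close to the same in both lists. The summit lay at the same base in 401 pairs (45.1%, 41.8 to 48.4), where 32.8% of all 3274 one-to-one pairs shared it, and within 10 bp in 713 (80.2%). In 31 pairs the summits were over 100 bp apart, with a largest distance of 759 bp. The start was the same in 114 pairs, the end in 102, and both in 20. On U 53.7% (46.8 to 60.6) of pairs shared the summit, on Het 41.5% (34.1 to 49.1) and on the arms 24.2% (22.3 to 26.1).

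Widths of pairs were nearly equal except at the end of the sequence. The median log2 ratio of list S to list L width on Uextra was -0.01 (-0.02 to -0.01). There 323 of 889 pairs (36.3%) were wider in list S, beside 21.0% of all pairs. U and Het were close to this, each with a median of -0.02 (-0.03 to -0.01), while the arms had -0.20 (-0.21 to -0.18). Pairs wider in list S numbered 74 of 214 on U, 44 of 176 on Het and 247 of 1984 on the arms. From 28 Mb on the Uextra median was 0.36 (0.19 to 0.51) over 50 pairs. The median widths there were 172 and 224 bp, and 47 of the 50 were wider in list S. Before that it was -0.01 (-0.02 to -0.01) over 839 pairs. The largest ratio was that of a region from 28556136 to 28556209 in list L (74 bp) and 28556046 to 28556481 in list S (436 bp), a log2 ratio of 2.56 with the summit at the same base. The smallest, -2.43, was that of a region from 26009602 to 26010080 in list L (479 bp) and 26009600 to 26009688 in list S (89 bp), whose summits were 291 bp apart.

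Strength was set side by side as the percentile among the 3274 one-to-one pairs, the same regions in both lists. On Uextra it was higher in list S in 751 of 889 pairs (84.5%, 81.9 to 86.8), against 57.4% of all pairs. The median difference was 5.56 percentile points (4.73 to 6.41). U and Het gave nearly the same, with 4.90 points (3.42 to 5.62) and 5.07 (3.39 to 6.96), while the arms gave -2.49 (-3.10 to -1.62). Percentiles of one set sum to a fixed total, so a lower place of the arm pairs raises that of the others, and the sign alone is no measure of Uextra.

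The end of Uextra, whose 28 Mb limit was chosen with earlier results of these data known, had larger differences than the rest. There the median pair stood at percentile 26.1 in list L and 77.7 in list S, a median difference of 40.0 points (32.1 to 46.5), and 48 of 50 pairs were higher in list S. Before 28 Mb the median difference was 4.92 points (4.09 to 5.89) over 839 pairs. Differences above 20 points were found in 37 of the 50 end pairs and in 81 of the 839 others, and below -20 points in 0 and 2. In the 2 Mb bins before 28 Mb the median lay between 3.02 (1.04 to 6.75), from 6 to 8 Mb, and 9.41 (3.45 to 13.3), from 26 to 28 Mb, with no steady rise and overlapping intervals.

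**Figure D3:**
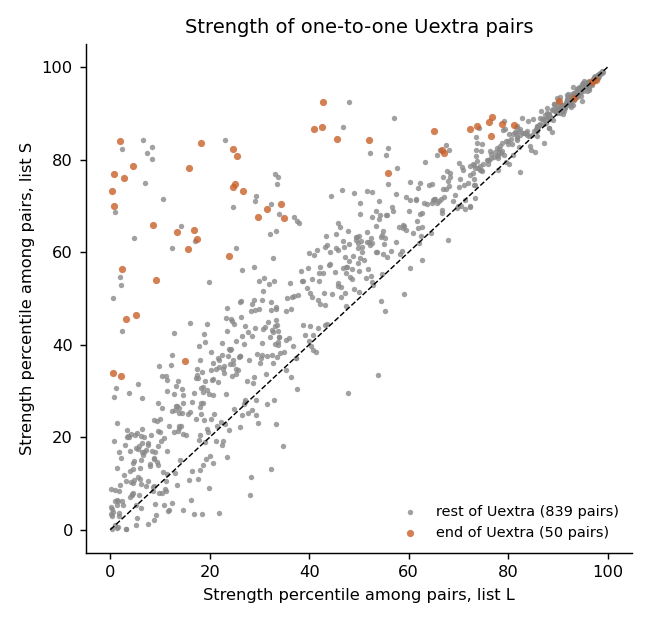
Strength percentile among all one-to-one pairs in list L (x axis) and list S (y axis), 1 point per Uextra pair, with pairs from 28 Mb on in orange, the others in grey and the line of equality dashed. Of the 50 end pairs 48 lie above the line, and weak list L pairs among them reach percentiles above 80 in list S.

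The largest differences were rises, and a rise of that size requires a low percentile in list L and a high one in list S. Beside the region at 28556136 (percentile 1.92 and 84.0), the region from 27923547 to 27923650 in list L stood at percentile 2.29 with a −log10 p of 3.86, and at 82.3 with 8.52 in list S. The region from 26185811 to 26185946 in list L stood at 6.57 with a −log10 p of 3.94, and at 84.3 with 8.92 in list S. The last 2 start before 28 Mb, so large rises were not limited to the end. These examples were chosen after their values were seen.

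Matching was not one-to-one for a few regions. In list L 5 of 992 Uextra peaks overlapped more than 1 list S peak, beside 113 of all 5145 peaks. On U it was 6 of 250 and on Het 6 of 214. In list S 2 of 1312 Uextra peaks overlapped more than 1 in list L, beside 29 of all 4027 peaks. There U had 3 of 244 and Het 5 of 199. The list S peak from 197494 to 198802, 1309 bp wide, overlapped 3 list L peaks. They belong to a group of 4 list L peaks from 196257 to 198793, one of the largest groups with gaps under 1 kb in that list.

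Equal summit p-values were rare on Uextra, as on U and the Het scaffolds. In list L 6 of 992 peaks (0.605%, 0.222 to 1.31) carried a −log10 p found in another peak of the list, where 15.6% of all peaks did. In list S it was 7 of 1312 (0.534%, 0.215 to 1.10) beside 6.68% of all peaks. On U the shares were 1.60% (0.438 to 4.05) and 2.87% (1.16 to 5.82), and on Het 2.80% (1.04 to 6.0) and 1.51% (0.312 to 4.34). On the major arms they were 21.4% (20.1 to 22.8) and 11.1% (9.88 to 12.5). Recurring values on the arms belonged mainly to weak peaks, with 42.2% in the weakest part of list L and 2.71% in the strongest. On Uextra the share was at most 3.49% in any part of list L and 1.74% in any part of list S. Within parts of equal strength the odds on Uextra were 0.0255 times those on the arms in list L (0.0114 to 0.0570) and 0.0458 times in list S (0.0216 to 0.0974).

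The interval of the comparison with U included 1 in list L (0.373, 0.105 to 1.32) but not in list S (0.190, 0.0658 to 0.548). Against Het it was the other way round, with 0.227 (0.0719 to 0.714) in list L and 0.308 (0.0786 to 1.21) in list S. Shared values counted within a class depend on how many peaks it holds, so these shares were counted over the whole list.

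**Figure D4:**
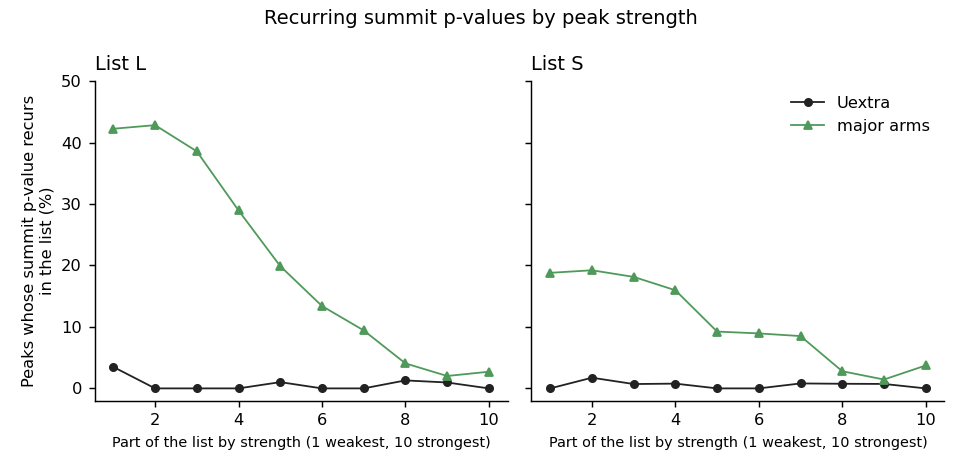
Share of peaks whose summit p-value recurs in the same list (y axis, percent) in 10 equal parts of the list by strength (x axis), for Uextra (circles) and the major arms (triangles). On the arms the share goes from 42.2% in the weakest part of list L to 2.71% in the strongest, and on Uextra it stays at or below 3.49% in both lists.

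Only 2 sets of equal values lay wholly on Uextra, each of 2 peaks, and both were found again in the other list. In list L the peaks from 593845 to 594020 and from 1598369 to 1598477 had the same −log10 p of 3.96. Their list S counterparts, from 593844 to 594063 and from 1598361 to 1598619, shared a value of 4.32. In list L both had 45 bp between summit and end, but 130 and 63 bp between start and summit. In list S neither side was equal, with 131 and 71 bp before the summit and 88 and 187 bp after it.

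The other set was stronger and its peaks lay far apart. The peaks from 1404848 to 1405166 and from 22291108 to 22291451 shared a −log10 p of 6.81 in list L, and their counterparts from 1404854 to 1405163 and from 22291114 to 22291449 shared 6.25 in list S. After the summit they had 73 and 72 bp in list L and 60 and 60 bp in list S. Before it they had 245 and 271 bp in list L and 249 and 275 bp in list S, 26 bp more at the second place in both lists. Their strengths nevertheless differed, at percentiles 75.4 and 80.1 of list L and 66.7 and 73.6 of list S.

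A further set joined Uextra to U in both lists. The Uextra peak from 1047925 to 1048155 and the U peak from 7216953 to 7217261 shared a −log10 p of 4.67 in list L. In list S the Uextra peak from 1047962 to 1048142 and the U peak from 7216970 to 7217217 shared 4.28. Their flanks were unequal on both sides in both lists. The remaining equal values were found in 1 list only. In list L the peak from 25401452 to 25401560, at percentile 1.50, shared a value of 3.88 with 3 arm peaks. In list S the peak from 11458858 to 11459118 shared 4.65 with an arm peak, and the peak from 197494 shared 5.32 with another.

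No set was equal in both summit p and width. That was 0 of 992 peaks in list L and 0 of 1312 in list S, where a floor of 3 counts is 0.302% and 0.229%, and the exact interval reaches 0.371% and 0.281%. Equal widths alone were common, with 762 and 1087 peaks. Widths are whole numbers in a narrow range. No set of 3 or more equal p-values lay within Uextra, and none within U or the Het scaffolds. The arms held 74 such sets among 3675 peaks in list L and 16 among 2261 in list S. These counts within a class depend on how many peaks it holds. There was likewise no run of neighbouring peaks from 1 set.

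Neighbouring summits on Uextra were a median of 19.5 kb apart in list L (17.8 to 21.4) and 12.1 kb in list S (10.8 to 13.4). Before 28 Mb the medians were 20.1 kb (18.4 to 22.1) and 17.1 kb (15.4 to 19.1). From 28 Mb on they were 11.4 kb (8.16 to 17.6) and 1.99 kb (1.66 to 2.55), so in list S the summits of the end lay far closer together. The widest spacing was 247 kb in list L and 195 kb in list S, and the closest was 226 bp in both. All distances and groups on Uextra, here and elsewhere, were taken along its coordinates. Borders between the scaffolds strung together were not used. A distance that crosses such a border is no distance on a chromosome.

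**Figure D5:**
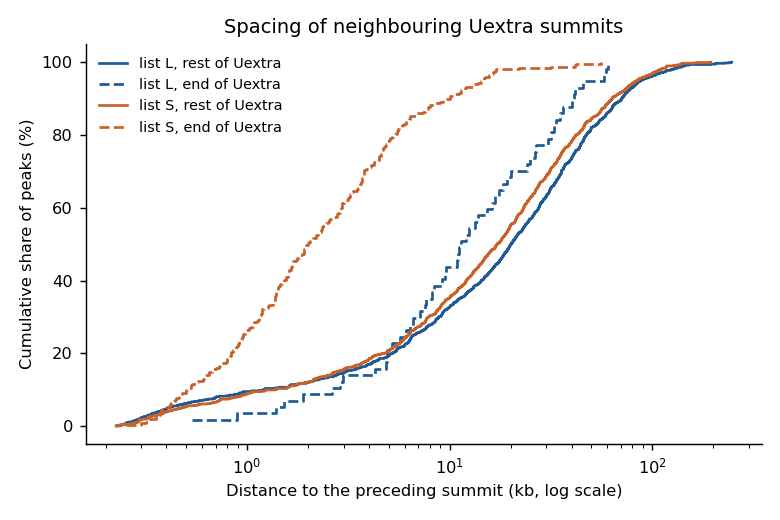
Cumulative share of peaks (y axis, percent) by distance to the preceding summit (x axis, kb on a log scale) for list L (blue) and list S (orange), before 28 Mb (solid) and from 28 Mb on (dashed). The list S curve for the end stands to the left, with a median of 1.99 kb, and the solid curves lie close together at 20.1 and 17.1 kb.

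Close neighbours made up a part of both lists. Summits under 1 kb apart were 89 of 934 spacings (9.53%) before 28 Mb in list L and 95 of 1062 (8.95%) in list S. From 28 Mb on they were 2 of 57 (3.51%) and 66 of 249 (26.5%). Joined at gaps under 1 kb, 191 list L peaks (19.3%) formed 92 groups of at least 2, and 334 list S peaks (25.5%) formed 151, of which 50 lay in the end. The largest group of list S, from 28830880 to 28833709, held 6 peaks with no counterpart in list L. The largest groups of list L held 4 peaks, and the one from 5023720 to 5024914 included 2 without a counterpart.

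Few distances between neighbouring summits recurred. In list L 18 distances occurred more than once, to the base pair, and took in 36 of 991 spacings. In list S 35 distances recurred and took in 71 of 1311. In the end of list S it was 4 distances and 8 of 249 spacings. How many recurrences these numbers of spacings would give without any repeat was not tested.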

How the data were processed

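ATAC-seq of S2 cells gave 4 libraries, 2 with LacZ and 2 with H1 knockdown. The submitters' processing notes name dm3, Bowtie2 (an aligner) and Genrich 0.5 (a peak caller), without their roles, and no option, filter or pooling step is stated. Both lists the authors deposited have narrowPeak order and no header, and columns were read by place. The deposited signal column is the area under the caller's curve (strength), the score column is capped at 1000, and the deposited p and q columns are −log10 values of the caller. The lowest strength was 20.0 in list L and 20.1 in list S, and the lowest −log10 q was 1.54. Any weaker peaks are absent from the lists, and the part of this in the unmatched shares was not tested. The other deposited columns used are whole-number positions. Depth per library is unknown, so no value is tested across samples.

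Peaks named Uextra were kept as 2 separate lists. Peaks were matched by 1 bp of overlap. Coordinates are 1-based. Classes were Uextra, U, Het scaffolds, chromosome 4 and the major arms (2L, 2R, 3L, 3R, X). Odds ratios were pooled over 10 equal parts of a list by strength (Mantel-Haenszel), except where they are called crude. Medians carry order-statistic intervals. The named peaks were the 5 strongest and the 5 strongest unmatched of each list, the widest and narrowest, the sets of equal −log10 p, the 3 fullest 100 kb windows and the extreme width ratios. The members, the lists, the 28 Mb limit and the alternatives were chosen with earlier results of these data known. The matching, odds ratio, equal-value count and width ratio were tested on simulated data. Python 3.11.15, numpy 2.4.6, pandas 2.3.3, scipy 1.17.1 and matplotlib 3.10.9 were used.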

Additional observations from a re-analysis of the deposited data

How the results depend on the processing

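The 26 results were recomputed under 11 settings. Of 134 values, 92 lay inside the reported interval with no call lost, 41 moved outside it, 1 lost its call though inside it, and 0 were counted as reversed. A lost call or a reversal could be counted only for ratios whose reported interval excluded 1, or 0 for the log2 width ratio. Shares, medians and percentiles could not reverse. The list L odds against Het crossed 1, from 0.897 to 2.65 with list L cut, and were not counted because their reported interval includes 1. Without the stretch from 28 Mb, Uextra held 28.1% of list S, 19.9% of its Uextra peaks were unmatched, with odds of 4.26 against U and 14.4 against the arms, the median width was 247 bp and the spacing 17.1 kb. When 50% of both peaks had to overlap, 12.6% of list L peaks and 33.9% of list S peaks on Uextra were unmatched, with odds in list S of 3.93 against U, 6.96 against Het and 3.53 against the arms. In the stronger 50% of each list, Uextra held 22.0% and 34.7%, 26.5% of list S peaks there were unmatched, with odds of 7.49 against Het, the list L percentile was 61.8, widths were 409 and 337 bp, spacings 34.1 and 26.1 kb, and paired summits 0 bp apart. The list S to list L ratio before 28 Mb was then 1.09 (0.965 to 1.22), whose interval includes 1. That interval also takes the lists as separate counts, so the lost call ignores the matching of peaks. With list L cut to the 4027 strongest peaks, Uextra held 20.4% of list L, 2.55% and 38.6% were unmatched, the odds of list L against Het were 2.65 (0.577 to 12.1) and the ratio before 28 Mb was 1.37. With a −log10 q of at least 2, the shares were 20.9% and 34.3%, widths 303 and 253 bp, and spacings 23.2 and 15.8 kb. With peaks within 500 bp merged, the shares were 23.4% and 37.6%, widths 309 and 254 bp, spacings 22.3 and 14.6 kb, and the list S summit fraction 0.481. With sets of 3 or more, 0% of either list was in a set of equal p-values, since each set held 2 peaks. The cause of the other moves was not tested.

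No paired analysis was possible because the lists carry no replicate numbers and belong to no group by the labels. Leaving out a replicate was not done for the same reason. Depth is unknown, so strength and q describe peaks within a list only.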
